A study of Gallus gallus with 24 samples.

Results

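Cells with a knockdown of IRF9 were compared with mock cells after 6 h of poly(I:C), over every gene with a mean of 1 CPM or more in either group (CPM are read counts scaled to a common library size). The rule kept 11711 of the 25466 genes in the files, of which 10729 were protein-coding and 890 were long non-coding RNA genes. The cells were DF1, an established chicken embryonic fibroblast line, and poly(I:C) is a synthetic double-stranded RNA that stands in for a virus. Each of the 2 groups held 3 libraries of poly(A)-selected RNA. The mock group is given as wild type in the labels and the other as an IRF9 knockdown, and both received poly(I:C) for 6 h. The same 2 genotypes at 0 h, 30 min and 1 h gave another 18 libraries, which shared the model and were used to ask whether a difference was already there before 6 h. The labels name poly(I:C) for all 24 libraries, those of 0 h included, and cells kept for 6 h without poly(I:C) were not analysed here. The sources used here do not give how the knockdown was made, whether it was 1 clone or a pool, or how poly(I:C) reached the cells. Separate cultures are not stated for the replicates, so p-values measure the spread between these libraries, which may be technical.

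Double-stranded RNA is sensed in the cytoplasm by RIG-I-like receptors and in endosomes by TLR3, and both routes lead to NF-kB and interferon regulatory factors and so to type I interferon and inflammatory cytokines. Secreted interferon binds its receptor and activates JAK kinases, which phosphorylate STAT factors. In mammals IRF9 acts with STAT2 in ISGF3, the complex that binds interferon-stimulated response elements and turns on antiviral genes. The comparison therefore asks how the genes of this response, and all other genes, stand when IRF9 is reduced during a response to double-stranded RNA.

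The libraries held 12946730 to 18171990 counts in genes at 6 h, and a count of 3 corresponded to 0.166 to 0.241 CPM. Genes with at least 1 count numbered 15039 to 15181 in the mock libraries and 15419 to 15552 in the knockdown libraries. Mock replicate 2 stood apart from the other mock libraries at every time. Its 4 libraries lay at 29.5 to 39.8 on the first principal component, against -17.8 to 8.58 for the other 20 libraries. The heat shock gene HSPA2 had 27326, 6266 and 16058 CPM in the mock libraries and 28834, 28761 and 18026 CPM in the knockdown libraries, so the lowest value by far was that of mock replicate 2. The part of this library in each result was examined by leaving it out. Fibroblast markers were present as labelled, with 17 of 18 among the genes kept. Summed over all 18, the level was 6440 to 7710 CPM in mock and 5830 to 6880 CPM in knockdown libraries. Of the 13000 genes tested in all, 11710 belonged to the comparison, and the remaining member, MIR138-1, was not tested, with 0.802, 1.83 and 0.445 CPM in mock and 0.566, 0.132 and 0.287 CPM in knockdown. At the edge of the rule, LOC124417284 was just inside with means of 0.651 CPM in mock and 1.00 CPM in knockdown, and LOC107053373 was just outside with 0.999 and 0.429 CPM.

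IRF9 itself was lower in every knockdown library. This protein-coding gene (identifier 395243) sits on chromosome 20 from 10406021 to 10408887 in GRCg7b. IRF10 is given as a synonym in the annotation, and the files do not tell for which of the 2 names the knockdown was designed. Its level was 33.5, 33.1 and 31.9 CPM in the mock libraries and 21.03, 20.9 and 23.2 CPM in the knockdown libraries. In bulk RNA, less IRF9 in every cell and a loss in part of the cells cannot be told apart. The groups did not overlap, and the knockdown cells kept 66.1% of the mock level (32.8 ± 0.853 CPM against 21.7 ± 1.29 CPM, SD, n = 3). The 2-sided exact permutation test gave p = 0.1, the smallest that 3 against 3 libraries allow. In the model across all genes the log2 difference was -0.60 (SE 0.18, 95% confidence interval -0.96 to -0.23), with an unadjusted p of 0.00248 and an adjusted p of 0.777. Averaged over the 3 earlier times the difference was -0.85, and IRF9 was the 1 gene called there (0.00769% of genes tested), with an edgeR adjusted p of 0.000275. That average took libraries of equal replicate number as independent across times. Within genotype such libraries correlated at 0.281, a single estimate for both genotypes, so its p-values may be too small. Between 6 h and the earlier times, same-numbered libraries correlated at 0.13 to 0.391 in mock and -0.013 to 0.147 in knockdown. The knockdown cells held 64.5% of the mock level at 0 h, 46.2% at 30 min and 56.8% at 1 h. The difference at 6 h minus that at earlier times was 0.25, with an adjusted p of 0.854.

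**Figure D1:**
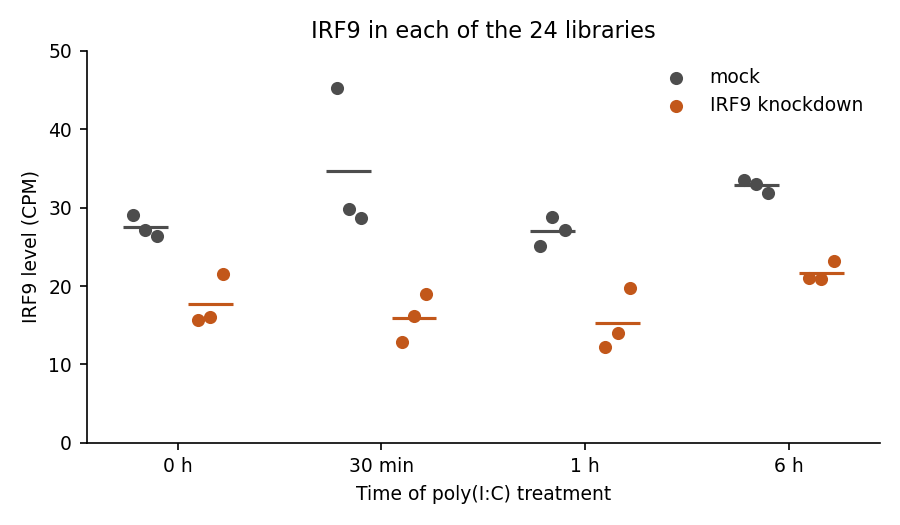
IRF9 level in CPM (vertical axis) in each library by time of poly(I:C) treatment (horizontal axis), with mock libraries in grey, IRF9 knockdown libraries in orange and the group mean as a bar. At 6 h the 3 mock libraries lie between 31.9 and 33.5 CPM and the 3 knockdown libraries between 20.9 and 23.2 CPM.

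No gene passed the threshold of an adjusted p under 0.05 at 6 h (edgeR's quasi-likelihood test, 0 of 13000 genes, 0% called, smallest adjusted p 0.317). At an unadjusted p under 0.05 there were 799 genes, or 6.15% of those tested, where chance alone would give 650. Of these, 290 were higher in the knockdown (2.23%) and 509 lower (3.92%). Among the members the counts were 264 higher and 483 lower. DESeq2 called 4 genes, all lower, when fitted to all 24 libraries and 0 when fitted to the 6 libraries of 6 h, and limma voom called 0 in both. The count at an unadjusted p under 0.05 was 402 without mock replicate 2 and 1301 without mock replicate 1. With all libraries the same cut-off gave 196 genes at 0 h, 1732 at 30 min and 302 at 1 h, each of 13000 tested. Genes share their libraries and such counts vary widely, so 799 at 6 h is not read as an excess over 650. The knockdown libraries lay wholly below the mock libraries for 770 members (6.58%) and wholly above for 845 (7.22%), against 6.35% and 6.92% of all tested genes.

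The confidence intervals show how large a difference could have gone unseen. The 95% interval lay within 1.5-fold of no difference for 7535 of the 11710 tested members (64.3%) and within 2-fold for 10105 (86.3%). Precision followed expression. Of the 4759 members with 50 CPM or more in the higher group, 90.8% were held within 1.5-fold and 99.4% within 2-fold, whereas of the 2152 under 5 CPM 2.14% and 35.7% were. The log2 difference exceeded 1 in size for 118 members, 55 higher and 63 lower, and 116 of these were under 5 CPM.

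**Figure D2:**
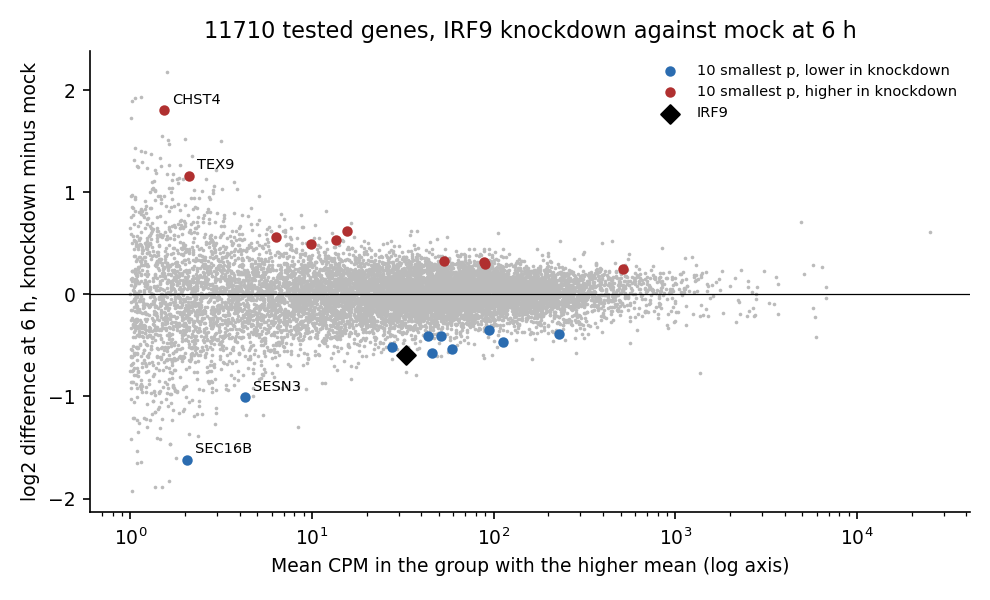
Log2 difference between knockdown and mock at 6 h (vertical axis) against the mean CPM of the group with the higher mean (horizontal log axis) for the 11710 tested members, 1 grey point each. Coloured points are the 10 named genes of smallest p in each direction and the black diamond is IRF9 at -0.60, and the spread narrows as the level rises.

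The 10 named genes with the smallest p among those lower in the knockdown all had groups that did not overlap, beside 6.35% of all genes tested. They were chosen by p in these same libraries, so the separation adds no support. Each is given by its values, since none passed the adjusted threshold in edgeR. KIAA0753, a protein of centrioles and cilia that lies on chromosome 19 from 10289997 to 10309915, had 50.1, 48.7 and 38.04 CPM in the mock libraries and 28.6, 30.7 and 32.6 CPM in the knockdown libraries. Its log2 difference was -0.57 (SE 0.12, interval -0.81 to -0.34, edgeR unadjusted p 4.44e-05, adjusted p = 0.317). It was one of the 4 genes that DESeq2 called, with an adjusted p of 0.0127. Without mock replicate 3, the lowest mock library for this gene, edgeR called it too, at -0.70 with an adjusted p of 0.0296. SLC4A4, a bicarbonate transporter, was the other gene called without that library, at -1.25 and an adjusted p of 0.028. With all libraries the SLC4A4 values overlapped, at 8.43, 12.7 and 3.87 CPM in the mock libraries and 4.18, 5.198 and 4.08 CPM in the knockdown libraries.

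HMBOX1, a homeobox protein that binds telomere repeats, lies on chromosome 3 from 105896186 to 106022287 and had 52.6, 70.2 and 54.05 CPM in the mock libraries and 40.7, 40.3 and 41.1 CPM in the knockdown libraries. The knockdown values lay within 1 CPM of each other, and mock replicate 2 was the highest. The log2 difference was -0.54 (SE 0.11, edgeR unadjusted p 7.63e-05, adjusted p = 0.317). PKD1, which encodes the ciliary membrane protein polycystin-1, lies on chromosome 14 from 6303280 to 6389322 and was the most highly expressed of the 10, with 228, 236 and 222 CPM in the mock libraries and 181, 174 and 170.01 CPM in the knockdown libraries. Its difference was -0.39 (SE 0.0827, edgeR unadjusted p 9.77e-05, adjusted p = 0.317). DESeq2 called both, each with an adjusted p of 0.0127. The fourth gene it called was LOC107053318, a long non-coding RNA gene on chromosome 4 from 83559022 to 83573390, with 16.05, 17.7 and 15.7 CPM in the mock libraries and 10.4, 8.09 and 9.43 CPM in the knockdown libraries and a log2 difference of -0.83. This gene has no symbol and was named because DESeq2 called it, after its values were seen.

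SESN3, a sestrin that restrains mTORC1 signalling under stress, had 3.53, 4.76 and 4.51 CPM in the mock libraries and 2.76, 2.24 and 1.44 CPM in the knockdown libraries and a log2 difference of -1.01 (SE 0.26). DEPDC5, a subunit of the GATOR1 complex that also restrains mTORC1, had 48.3, 49.8 and 55.3 CPM in the mock libraries and 36.3, 39.1 and 40.6 CPM in the knockdown libraries and a difference of -0.40 (SE 0.11). For both genes the lowest mock library was above the highest knockdown library. DYNC2H1, the heavy chain of the dynein that carries cargo back along cilia, stood at 24.5, 29.5 and 28.6 CPM in the mock libraries and 18.6, 19.1 and 19.95 CPM in the knockdown libraries, with a difference of -0.52 (SE 0.14). WDR62, a scaffold protein of spindle poles, had 93.9, 139 and 103 CPM in the mock libraries and 73.9, 86.001 and 83.4 CPM in the knockdown libraries and a difference of -0.47. Mock replicate 2 was the highest library for WDR62, and without it the value was -0.29. The chromatin proteins SFMBT1 and ELMSAN1 differed by -0.41 (SE 0.10) and -0.35 (SE 0.0895). SEC16B, a protein of endoplasmic reticulum exit sites, was near the rule's edge, with 1.204, 1.83 and 3.11 CPM in the mock libraries and 0.708, 0.658 and 0.632 CPM in the knockdown libraries, and its difference of -1.62 had an interval of -2.52 to -0.72. With means of 2.05 CPM in mock and 0.666 CPM in knockdown, it passed the rule only through the mock group. The rule itself thus favoured such a difference.

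The 10 named genes with the smallest p among those higher in the knockdown had larger p-values, from 0.00298 to 0.00935, and an adjusted p of 0.777 throughout. PHF5A, a subunit of the SF3b splicing complex, had 39.2, 42.3 and 45.5 CPM in the mock libraries and 51.6, 51.9 and 56.2 CPM in the knockdown libraries (log2 difference 0.33, SE 0.10). LSM7, part of the ring that binds U6 RNA in the spliceosome, had 77.6, 69.5 and 72.8 CPM in the mock libraries and 91.6, 97.6 and 80.6 CPM in the knockdown libraries (difference 0.29, SE 0.10). NUS1, a subunit of the enzyme that makes dolichol, had 71.9, 63.7 and 78.9 CPM in the mock libraries and 86.1, 88.7 and 92.2 CPM in the knockdown libraries (difference 0.32, SE 0.10). These were 3 moderately expressed genes whose groups did not overlap, beside 6.92% of all genes tested, and they too were chosen by p. RPS23, a protein of the small ribosomal subunit, was the most abundant of the 10, with 426, 439 and 441 CPM in the mock libraries and 499, 514 and 536 CPM in the knockdown libraries and a difference of 0.25 (SE 0.0861). MPV17, an inner mitochondrial membrane protein, and DNAJC5G, a co-chaperone of the cysteine string protein family, are near neighbours on chromosome 3, from 104344276 to 104348518 and from 104353761 to 104359160. MPV17 had 4.65, 3.599 and 4.64 CPM in the mock libraries and 7.44, 5.66 and 5.92 CPM in the knockdown libraries and a difference of 0.56. DNAJC5G had 8.51, 9.36 and 12.4 CPM in the mock libraries and 18.2, 14.9 and 13.6 CPM in the knockdown libraries and a difference of 0.62. TTC33 had 9.23, 10.4 and 8.701 CPM in the mock libraries and 10.8, 12.8 and 17.2 CPM in the knockdown libraries, with knockdown replicate 3 the highest, and a difference of 0.53, which was 0.31 without that library. CYB561A3, a lysosomal cytochrome b561 protein, differed by 0.49 (SE 0.17). CHST4, a Golgi sulfotransferase, and TEX9 were close to 1 CPM, and their differences of 1.80 and 1.16 had intervals of 0.66 to 2.94 and 0.36 to 1.96. Their means were 0.440 and 0.939 CPM in mock and 1.54 and 2.10 CPM in knockdown. Both passed the rule of 1 CPM only through the knockdown group, so the rule itself favoured such differences.

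Of the 10 lower genes, 5 were below 0 in the mean over 0 h, 30 min and 1 h, and none had an unadjusted p under 0.05 in either direction, beside 10.7% of all genes tested. Their median difference was 0.01 there and -0.49 at 6 h. KIAA0753 stood at 0.00, HMBOX1 at 0.07 and PKD1 at -0.03, while SEC16B stood at 0.47, on the other side of 0. Of the 10 higher genes, 4 were above 0 earlier, with a median of -0.01 against 0.51 at 6 h. One of these, RPS23, was lower at an unadjusted p under 0.05 earlier, at -0.12. Single genes lay farther from 0 at the earlier times, with SESN3 at -0.26, CHST4 at 0.26 and TEX9 at 0.23. The mean also joined times of opposite sign. SESN3 stood at -0.48 at 0 h, 0.14 at 30 min and -0.43 at 1 h. DYNC2H1 stood at -0.30, 0.23 and -0.20, and SEC16B at -0.03, 0.46 and 0.99. The edgeR unadjusted p was 0.0345 for DYNC2H1 at 0 h and 0.0416 for SEC16B at 1 h. The differences at the earlier times did not enter the choice of the 10 lower and 10 higher genes. Their 18 libraries did share the estimate of spread behind the p-values, so the earlier values are not fully independent of that choice. The 6 h values entered it directly, so the 6 h medians are descriptions. Over all 483 members that were lower at an unadjusted p under 0.05, 61.9% were below 0 at the earlier times, against 52.3% of all members. Mock replicate 2 deviated alike at 6 h and before, with correlations of 0.378 at 0 h, 0.391 at 30 min and 0.341 at 1 h. The 61.9% is therefore not independent of the 6 h choice, and it was not computed without that replicate. The test of 6 h minus earlier times called 0 genes in edgeR, with 835 at an unadjusted p under 0.05 (6.42%). DESeq2 called 2 there, HMBOX1 and LOC107053318. The second stood at 0.27 in the mean over the earlier times (edgeR unadjusted p 0.0122), on the other side of 0 from its -0.83 at 6 h. For the same test limma voom with a random replicate block called 1. At an unadjusted p under 0.05 limma voom had 851 of 13000 genes without that block and 1530 with it. The count of this test thus depended on how same-numbered libraries were treated.

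**Figure D3:**
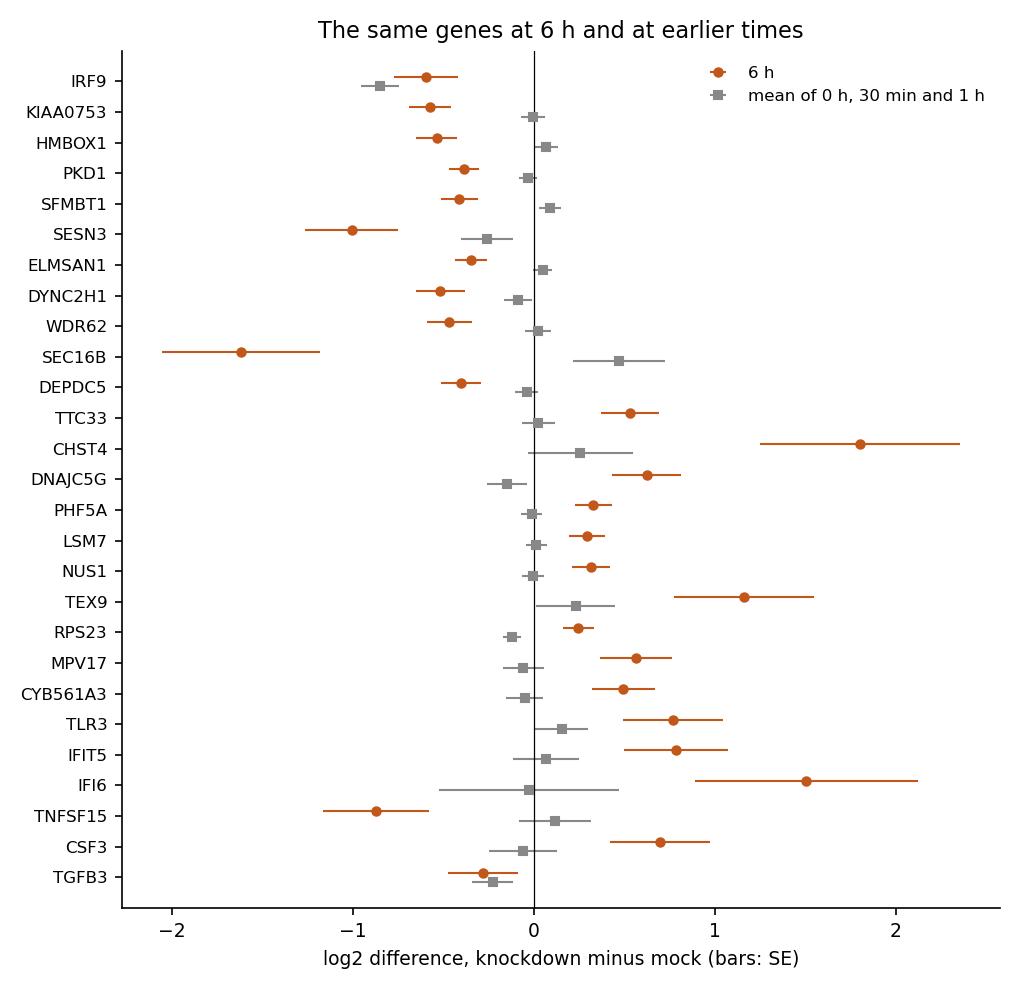
Log2 difference between knockdown and mock (horizontal axis) with its standard error as bars, for IRF9, the 10 lower and 10 higher genes of smallest p and 6 immune genes (vertical axis), at 6 h in orange and averaged over 0 h, 30 min and 1 h in grey. IRF9 lies below 0 in both, whereas KIAA0753 lies at -0.57 at 6 h and at 0.00 earlier.

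The differences were ordered by the length of the gene. Gene span is the distance from start to end in the annotation, introns included. The 10 lower genes had a median span of 73.2 kb and the 10 higher genes one of 5.7 kb, against 15.2 kb over all members. When the protein-coding members were divided by span into 5 groups of near equal size, the median log2 difference stepped from 0.14 in the shortest group (0.165 to 5.44 kb, 2147 genes) through 0.06, 0.01 and -0.04 to -0.11 in the longest (49.2 to 1290 kb, 2146 genes). In the shortest group 23% of genes were below 0, and in the longest 74.8%. Genes lower at an unadjusted p under 0.05 made up 3.92% of all genes tested, and genes that were higher 2.23%. The lower genes numbered 14 in the shortest group (0.652%) and 234 in the longest (10.9%), and the higher genes 137 (6.38%) and 12 (0.559%). Without mock replicate 2 the lower genes numbered 9 in the shortest and 70 in the longest group, and the higher genes 44 and 12. In that fit 214 of the 11710 tested members were lower and 121 higher. The medians of the shortest and longest groups were 0.094 and -0.065. All these genes share the same 6 libraries, so they are not replicates.

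The replicate here is the library, so each library was given a score, the median log2 deviation of its long genes minus that of its short genes. At 6 h the score was 0.030, 0.248 and -0.001 in mock libraries and -0.188, -0.083 and -0.141 in knockdown libraries. The groups did not overlap, with a difference of -0.229, and the exact permutation p was 0.1, again the smallest possible. Mock replicate 2 was the highest of the 6. At 0 h the difference was -0.048 (exact p = 0.5), at 1 h it was 0 (exact p = 1), and at 30 min it had the opposite sign, 0.288 (exact p = 0.2). Reads in no gene made up 17.55, 14.64 and 17.86% of the mock libraries and 15.77, 16.33 and 15.70% of the knockdown libraries. With a smooth trend on span removed from each library, 589 genes were left at an unadjusted p under 0.05 and 0 were called. The part of RNA quality or library preparation in this gradient was not tested.

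**Figure D4:**
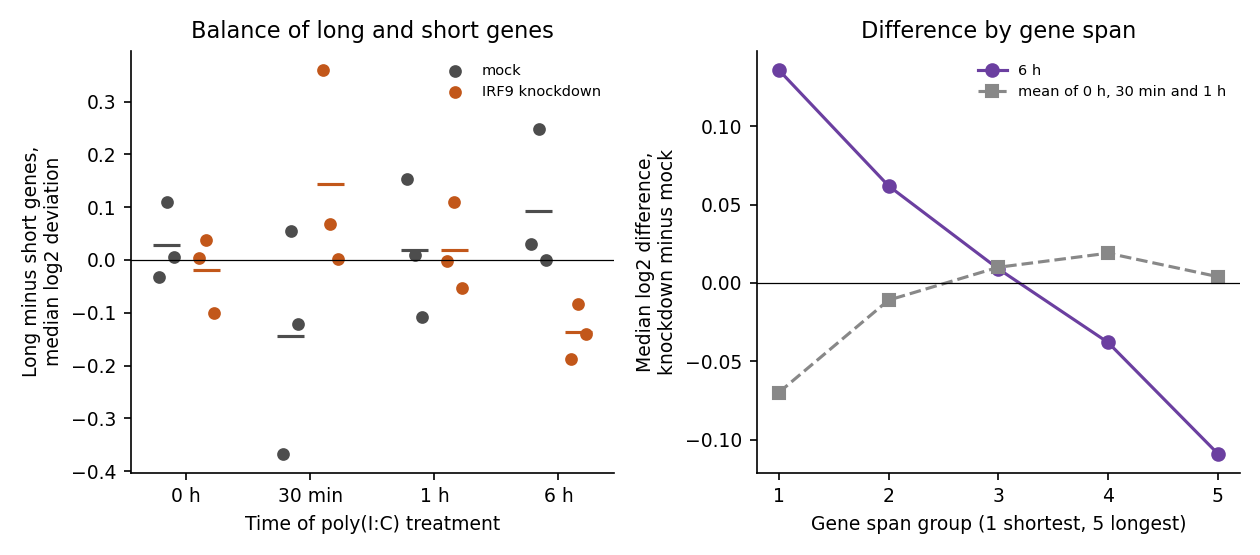
Left, the long-minus-short score of each library (vertical axis, log2) by time of poly(I:C) treatment, with mock in grey, IRF9 knockdown in orange and group means as bars. Right, the median log2 difference between knockdown and mock (vertical axis) for 5 groups of genes ordered by span (horizontal axis), at 6 h and averaged over the earlier times. At 6 h the line runs from 0.14 in the shortest to -0.11 in the longest group.

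Interferon-stimulated genes showed no call and no common direction. Of 57 list genes in the files, 50 were tested, 30 above 0 and 20 below, with a median of 0.07 beside 0.00 over all genes tested. At an unadjusted p under 0.05, 5 of the 50 were higher and 3 lower, beside 2.23% and 3.92% of all genes tested. The knockdown libraries lay wholly above mock for 8 and wholly below for 5, beside 6.92% and 6.35% of all genes. Without mock replicate 2, 2 were higher and 1 lower, and without knockdown replicate 3, 2 and 0. Summed over the 49 members the level was 1552, 1559 and 1637 CPM in mock and 1587, 1594 and 1620 CPM in knockdown, so the groups overlapped. The median was 0.01 with the span trend removed, and between 0.04 and 0.12 with any 1 of the 6 libraries left out.

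Among genes of the list, HELZ2, ZNFX1 and EIF2AK2 were close to equal between the groups. HELZ2, a helicase that is induced by interferon, averaged 15.01 CPM in mock cells at 0 h. At 6 h it stood at 133, 142 and 157 CPM in the mock libraries and 147, 137 and 131 CPM in the knockdown libraries, and these ranges overlapped, with a difference of -0.06 and an interval of -0.47 to 0.35. ZNFX1, in mammals a sensor of double-stranded RNA, had 179, 193 and 203 CPM in the mock libraries and 171, 181 and 209 CPM in the knockdown libraries (interval -0.26 to 0.19). EIF2AK2, the kinase PKR that halts translation on binding double-stranded RNA, had 22.5, 25.4 and 25.02 CPM in the mock libraries and 21.9, 25.7 and 19.3 CPM in the knockdown libraries (interval -0.49 to 0.24). None of these 3 intervals reached a 1.5-fold difference in either direction. These 3 genes were chosen for their level after the values were seen, and they do not stand for the rest of the list.

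The list members with the smallest p were low in level and higher in the knockdown. In this and every other list the 3 members of smallest p were named. They were chosen by p in these same libraries, so groups without overlap add no support. Of all genes tested, 6.92% lay wholly above mock and 6.35% wholly below. IFIT5, which binds viral RNA ends, had 3.85, 4.82 and 3.11 CPM in the mock libraries and 6.37, 7.57 and 6.44 CPM in the knockdown libraries, with no overlap (difference 0.79, SE 0.29, edgeR unadjusted p 0.0112, adjusted p = 0.777). IFI6, an interferon-induced membrane protein, had 1.605, 0.886 and 0.889 CPM in the mock libraries and 2.34, 3.09 and 4.08 CPM in the knockdown libraries, again with no overlap, and a difference of 1.51 whose interval was wide, 0.23 to 2.78. TLR3, which senses double-stranded RNA in endosomes, had 1.69, 4.26 and 1.71 CPM in the mock libraries and 3.26, 4.15 and 5.86 CPM in the knockdown libraries, and mock replicate 2 lay within the knockdown range. Its difference was 0.77 with all libraries and 1.38 without mock replicate 2. In the other direction NLRC5, an activator of MHC class I genes, had 21.1, 17.7 and 15.9 CPM in the mock libraries and 12.4, 12.6 and 12.1 CPM in the knockdown libraries, without overlap (difference -0.56, edgeR unadjusted p 0.0409). GBP1, an interferon-induced GTPase, and C1S, a complement protease, differed by -0.55 and -0.51. The classical effectors MX1 and RSAD2 were below the filter, with 8 and 2 counts over the 6 libraries. A count of 3 in 1 library corresponded to 0.166 to 0.241 CPM, so both were barely detected after 6 h of poly(I:C). A difference between the groups could not be measured at such counts.

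Within the interferon regulatory factor family 7 genes were tested, 4 above 0 and 3 below. IRF7, the factor that amplifies interferon production, had 11.6, 11.4 and 12.4 CPM in the mock libraries and 17.2, 16.9 and 13.97 CPM in the knockdown libraries. Each knockdown library was above each mock library, but the difference of 0.44 had an interval of -0.09 to 0.97 and an unadjusted p of 0.0971. IRF8 had 42.05, 33.8 and 36.3 CPM in the mock libraries and 39.7, 41.3 and 38.5 CPM in the knockdown libraries and IRF1 had 5.54, 6.81 and 2.73 CPM in the mock libraries and 6.66, 6.32 and 4.71 CPM in the knockdown libraries, both with overlap. IRF2 lay at -0.01. At the earlier times the mean IRF7 difference was -0.01, which joined 0.27 at 0 h, -0.33 at 30 min and 0.03 at 1 h. The interferon genes IFNA3, IFNG and IFNL3A had no count at 6 h, which allows up to 0.166 to 0.241 CPM depending on the library, and IFNW1 had 1 count in all.

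Receptors, kinases and STAT factors differed little. Of 30 tested genes of the JAK-STAT list, 18 were above 0 and 12 below, the median was 0.05, and 3 were higher at an unadjusted p under 0.05, beside 2.23% of all genes tested. That count was 1 under RLE size factors, plain library totals, upper quartile scaling and with the span trend removed, and 0 without mock replicate 2 or without knockdown replicate 3. Without mock replicate 1, 2 were higher and 3 lower. SOCS1, a feedback inhibitor of JAK kinases, had 20.9, 21.1 and 20.3 CPM in the mock libraries and 26.2, 27.6 and 25.1 CPM in the knockdown libraries, without overlap (difference 0.34, SE 0.16). CISH, a feedback inhibitor of cytokine receptors, had 3.21, 1.22 and 3.56 CPM in the mock libraries and 5.03, 4.15 and 6.21 CPM in the knockdown libraries, also without overlap (difference 0.97, SE 0.37), and the difference was 0.59 without mock replicate 2. SOCS4, a relative of both, differed by 0.44 with overlapping groups, and by 0.26 without knockdown replicate 2. At the earlier times the mean values were -0.14 for SOCS1 and 0.32 for CISH. SOCS1 stood at -0.15 at 0 h, -0.21 at 30 min and -0.06 at 1 h, and CISH at -0.0002, 0.25 and 0.71. STAT2, the partner of IRF9 in mammals, had 8.51, 9.08 and 7.304 CPM in the mock libraries and 10.1, 8.82 and 7.302 CPM in the knockdown libraries, and its interval of -0.37 to 0.51 spans 0. STAT3 and JAK1, both above 200 CPM, were held to -0.11 to 0.21 and -0.19 to 0.17. The interferon receptor chains IFNAR1 and IFNAR2 had intervals of -0.27 to 0.12 and -0.39 to 0.11. Without mock replicate 2 the list median was 0.

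Of 31 tested genes that sense RNA or DNA and carry the signal to interferon, 16 were above 0 and 15 below, with a median of 0.01 that lay on the other side of 0 under plain library totals (-0.01) and upper quartile scaling (-0.01). IFIH1, the cytoplasmic sensor MDA5, had 10.03, 13.2 and 10.03 CPM in the mock libraries and 12.1, 13.4 and 10.6 CPM in the knockdown libraries (interval -0.23 to 0.47). DHX58, the related receptor LGP2, had 2.41, 2.38 and 2.67 CPM in the mock libraries and 3.47, 4.47 and 3.56 CPM in the knockdown libraries, with every knockdown library higher (difference 0.62, interval 0.00 to 1.25). MAVS, the adaptor that MDA5 signals through, had an interval of -0.30 to 0.23. TRAF2, an adaptor of TNF receptors, had 36.3, 36.1 and 38.7 CPM in the mock libraries and 31.2, 31.1 and 33.8 CPM in the knockdown libraries, without overlap and with a small difference of -0.21 (SE 0.10).

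Cytokines and chemokines, which act on other cells, also gave no call. Of 21 tested, 7 were above 0 and 14 below, with a median of -0.04 that was 0.04 without mock replicate 2. CCL4, the most abundant chemokine of those named here, averaged 369 CPM in mock cells at 0 h and stood at 1467, 1748 and 1611 CPM in the mock libraries and 1752, 1492 and 1513 CPM in the knockdown libraries at 6 h. The groups overlapped throughout (difference -0.02, interval -0.36 to 0.32). The neutrophil chemokine genes IL8L1 and IL8L2 had 57.6, 39.4 and 25.02 CPM in the mock libraries and 58.99, 60.8 and 27.8 CPM in the knockdown libraries for the first and 520.2, 461 and 315 CPM in the mock libraries and 670.4, 601 and 379 CPM in the knockdown libraries for the second. Their differences of 0.28 and 0.35 came with intervals of -0.44 to 0.99 and -0.35 to 1.05. TNFSF15, a TNF family ligand, had 8.02, 14.6 and 13.02 CPM in the mock libraries and 5.098, 6.91 and 7.47 CPM in the knockdown libraries, with all knockdown libraries lower (difference -0.87, SE 0.29, edgeR unadjusted p 0.00656, adjusted p = 0.777). CSF3, which drives granulocyte production, had 12.4, 10.1 and 7.68 CPM in the mock libraries and 21.2, 17.9 and 9.89 CPM in the knockdown libraries, with overlap (difference 0.70, SE 0.28, or 0.46 without knockdown replicate 1). TGFB3 differed by -0.28 with overlapping groups, and by -0.05 without mock replicate 2. CCL4, IL8L1 and IL8L2 were named for their known response to poly(I:C), with their values in view.

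Of 40 tested NF-kB targets and regulators, 15 were above 0 and 25 below (median -0.05). NFKBIA, the inhibitor that NF-kB itself induces, had 329, 299 and 282 CPM in the mock libraries and 336, 306 and 295 CPM in the knockdown libraries and a narrow interval of -0.16 to 0.25. RELA, the p65 subunit, had 41.6, 24.9 and 33.2 CPM in the mock libraries and 46.8, 44.3 and 41.2 CPM in the knockdown libraries, where mock replicates 2 and 3 were lowest and replicate 1 lay inside the knockdown range (difference 0.41, or 0.24 without mock replicate 2). TAB1, an adaptor of the kinase TAK1, had 15.8, 12.6 and 15.9 CPM in the mock libraries and 11.05, 12.04 and 11.4 CPM in the knockdown libraries, without overlap (difference -0.36). The antigen presentation list had 20 tested genes, 11 above 0 and 9 below. PSMB7, a proteasome subunit, had 301, 261 and 313 CPM in the mock libraries and 336, 322 and 352 CPM in the knockdown libraries (difference 0.21), without overlap. CIITA, the MHC class II activator, had 1.44, 6.31 and 6.48 CPM in the mock libraries and 1.77, 1.58 and 4.197 CPM in the knockdown libraries, with overlap. B2M, the light chain of MHC class I, had 69.1, 49.1 and 72.4 CPM in the mock libraries and 85.1, 71.5 and 77.8 CPM in the knockdown libraries, where mock replicate 2 was lowest and knockdown replicate 2 lay within the mock range (interval 0.00 to 0.60).

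Of 46 tested immediate early and growth factor response genes, 38 were above 0 and 8 below, with a median of 0.17. This rested on mock replicate 2: without it 29 were above 0, 17 below, and the median was 0.02. EGR3, a zinc finger factor, had 2.09, 1.11 and 0.699 CPM in the mock libraries and 3.19, 3.42 and 2.2998 CPM in the knockdown libraries, without overlap (difference 1.22, interval 0.15 to 2.28). SPRED2, an inhibitor of RAS signalling, had 87.1, 94.3 and 88.6 CPM in the mock libraries and 79.4, 81.2 and 71.6 CPM in the knockdown libraries, also without overlap (difference -0.22). SRF, the serum response factor, differed by 0.28 with overlap. Of 26 tested MAP kinase pathway genes 10 were above 0 and 16 below, and none had an unadjusted p under 0.05. DUSP7, a phosphatase of ERK, had 39.7, 42.7 and 35.2 CPM in the mock libraries and 31.9, 33.5 and 28.6 CPM in the knockdown libraries (difference -0.32, interval -0.68 to 0.03).

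Sterol genes showed none of 33 at an unadjusted p under 0.05, with 22 above 0, 11 below and a median of 0.04 that lay between -0.09 and 0.13 with any 1 library left out. HMGCS1, an early enzyme of cholesterol synthesis named with its values in view, averaged 159 CPM in mock cells at 0 h and had 577, 539 and 386 CPM in the mock libraries and 571, 593 and 410.4 CPM in the knockdown libraries at 6 h, with replicate 3 the lowest in both groups (interval -0.27 to 0.41). MVD, a later enzyme of the same route, had 65.1, 50.3 and 43.5 CPM in the mock libraries and 73.4, 63.96 and 53.9 CPM in the knockdown libraries (interval -0.11 to 0.64). ELOVL6 and MYLIP differed by -0.23 and 0.94, both with overlap.

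Ribosomal protein genes stood together. All 65 tested genes of the cytosolic ribosome were above 0, between 0.02 for RPL3 and 0.39 for RPS29, with a median of 0.17. At an unadjusted p under 0.05, 19 were higher, beside 2.23% of all genes tested. The count of 19 was 6 without knockdown replicate 3, 10 without mock replicate 1, 25 without mock replicate 3 and 10 under plain library totals. For 43 of the 65 every knockdown library exceeded every mock library, beside 6.92% of all genes tested. No member passed the adjusted threshold. Summed over the list, the level was 42980, 42460 and 45570 CPM in mock and 47850, 48240 and 51170 CPM in knockdown, without overlap. RPS10 had 554, 501 and 541 CPM in the mock libraries and 627, 634 and 628 CPM in the knockdown libraries (difference 0.24, SE 0.0873), and RPS13 had 368, 356 and 381 CPM in the mock libraries and 417, 439 and 439.8 CPM in the knockdown libraries (difference 0.23, SE 0.0838). Under plain library totals 64 were above 0, with a median of 0.14. Without mock replicate 2 all 65 stayed above 0, at a median of 0.15, with 3 at an unadjusted p under 0.05. At the earlier times the list median was -0.06, from means over times that differed. RPS23 stood at -0.05 at 0 h, -0.24 at 30 min and -0.08 at 1 h. RPS10 stood at 0.05, -0.16 and -0.03 and RPS13 at 0.08, 0.06 and 0.11, so each was lowest at 30 min. With the span trend removed their median was 0.06, 53 were above 0 and 5 had an unadjusted p under 0.05. The ribosomal protein genes had a median span of 3.1 kb. The removal lowered the median of the shortest span group from 0.14 to 0.01, so a downward shift was built in for them.

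Nuclear genes of the respiratory chain took the same side. Of 44 tested, 40 were above 0 and 4 below, with a median of 0.16. At an unadjusted p under 0.05, 6 were higher, beside 2.23% of all genes tested, and for 14 every knockdown library was above every mock library, beside 6.92%. The count of 6 was 0 without mock replicate 2, 1 without knockdown replicate 3, 2 without knockdown replicate 1, 10 without mock replicate 3 and 2 under plain library totals. The median without mock replicate 2 was 0.12, with 42 above 0. COX6A1, a subunit of cytochrome c oxidase, had 88.9, 72.5 and 96.2 CPM in the mock libraries and 110.1, 99.9 and 107 CPM in the knockdown libraries, without overlap (difference 0.30, SE 0.13). NDUFV2, a subunit of complex I, had 85.6, 87.9 and 96.3 CPM in the mock libraries and 106, 99.95 and 106 CPM in the knockdown libraries, without overlap (difference 0.21). COX7A2 differed by 0.30 with overlap, and by 0.14 without knockdown replicate 3. With the span trend removed the median was 0.06, 32 were above 0 and 3 had an unadjusted p under 0.05. These genes had a median span of 3.91 kb, so here too a downward shift was built in. At the earlier times the list median was -0.06 with the trend kept, again from means over times that differed. COX6A1 stood at 0.07 at 0 h, -0.26 at 30 min and 0.07 at 1 h. NDUFV2 stood at 0.01, -0.16 and 0.05, and COX7A2 at 0.02, -0.07 and -0.01.

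The 13 protein genes of the mitochondrial genome were on the other side, 2 above 0 and 11 below, with a median of -0.20. With the span trend removed all 13 were below 0, at a median of -0.38. At an unadjusted p under 0.05, 4 were then lower, beside 376 of 12999 genes. That removal lowered the median of the shortest span group from 0.14 to 0.01. The 13 had a median span of 0.784 kb, so a downward shift was built in for them. With the trend kept, their median was -0.08 without knockdown replicate 3 and -0.31 without knockdown replicate 2. Their summed level was 20100, 21800 and 17380 CPM in mock and 18060, 19590 and 14540 CPM in knockdown, and the groups overlapped. ND2 and ND5, both subunits of complex I, had 327, 335 and 274 CPM in the mock libraries and 246, 295 and 218 CPM in the knockdown libraries for ND2 and 1225, 1255 and 939.8 CPM in the mock libraries and 952, 1049.6 and 777 CPM in the knockdown libraries for ND5, also with overlap. ATP8 had 15.6, 16.2 and 20.4 CPM in the mock libraries and 9.701, 11.1 and 11.1 CPM in the knockdown libraries, without overlap (difference -0.71, edgeR unadjusted p 0.0126), but it overlaps ATP6 and its count is uncertain.

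Matrix and fibroblast genes were mostly below 0, 36 of 46 tested, with a median of -0.21, and 3 were lower at an unadjusted p under 0.05, beside 3.92% of all genes tested. That count was 15 without mock replicate 1, 12 without mock replicate 3, and 1 without mock replicate 2 or without knockdown replicate 1. TIMP3, an inhibitor of matrix metalloproteinases, had 728, 2295 and 1059.6 CPM in the mock libraries and 840.3, 706 and 843 CPM in the knockdown libraries. The difference of -0.77 came with mock replicate 2 far above the other 5 libraries, which overlapped, and without that library it was -0.17. COL6A1, a collagen VI chain, had 62.6, 125 and 73.7 CPM in the mock libraries and 57.2, 63.9 and 52.4 CPM in the knockdown libraries, with the same library highest (difference -0.59, or -0.24 without it). FBN1, the microfibril protein fibrillin, had 73.3, 72.5 and 80.6 CPM in the mock libraries and 57.4, 62.4 and 66.8 CPM in the knockdown libraries, without overlap (difference -0.28, SE 0.0928). Without mock replicate 2 the list median was -0.06, with 32 below 0. At the earlier times the list median was -0.15 with mock replicate 2 kept, and it was not computed without that replicate.

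Of 39 growth factor, receptor and hypoxia-linked genes 13 were above 0 and 26 below, with a median of -0.07. Without knockdown replicate 3 there were 19 above and 20 below, at a median of -0.005, and without mock replicate 3 the median was -0.16. IGF1R, the receptor for insulin-like growth factor, had 207, 226 and 215 CPM in the mock libraries and 183, 189 and 179 CPM in the knockdown libraries, without overlap (difference -0.24, SE 0.0889). PDGFD had 363, 468 and 379 CPM in the mock libraries and 337, 349 and 351 CPM in the knockdown libraries, without overlap (difference -0.22, or -0.11 without mock replicate 2), and PDGFA differed by -0.33 with overlap. Of 39 actin and contractile genes 13 were above 0 and 26 below. ACTG1, a cytoplasmic actin, differed by 0.25 and LPP, a protein of cell adhesions, by -0.22, both with overlap. Without mock replicate 2 the median of that list was 0.02 in place of -0.08.

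**Figure D5:**
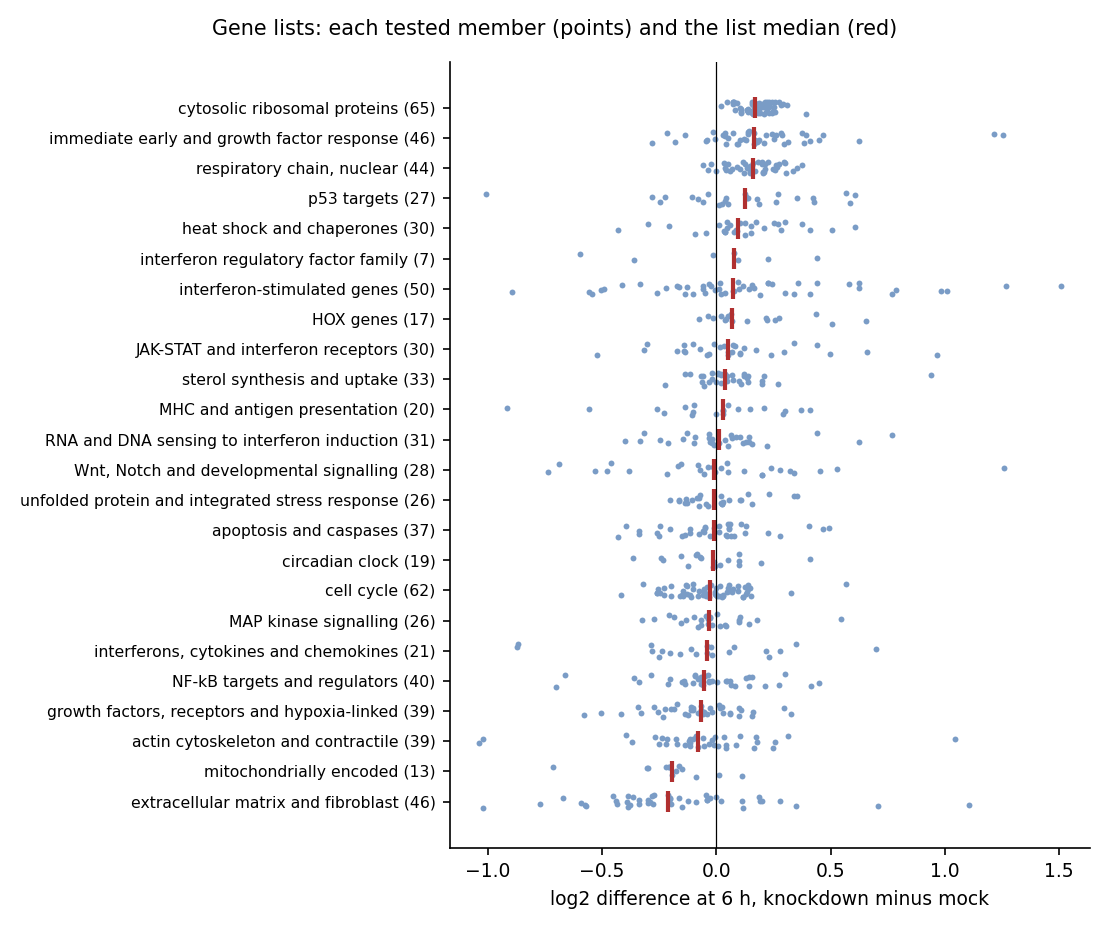
Log2 difference between knockdown and mock at 6 h (horizontal axis) for each tested gene (points) of the gene lists (vertical axis, number tested in parentheses), with the list median as a red bar. All 65 ribosomal protein genes lie above 0, while the interferon-stimulated genes spread from -0.90 to 1.51 around a median of 0.07.

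Cell cycle genes were split, 27 of 62 above 0 and 35 below, with a median of -0.03 that was 0.01 without mock replicate 2. CDK6, a kinase of the G1 phase, had 345, 442 and 330.1 CPM in the mock libraries and 298, 292 and 304 CPM in the knockdown libraries, without overlap (difference -0.32, SE 0.12, or -0.19 without mock replicate 2). CCND2, one of its cyclins, had 96.3, 116 and 106 CPM in the mock libraries and 91.8, 91.8 and 87.5 CPM in the knockdown libraries, without overlap (difference -0.23). KIF11, a spindle motor, differed by -0.26 with overlap, and by -0.10 without mock replicate 2. Among 27 p53 targets 19 were above 0. MDM2, which marks p53 for degradation, had 68.5, 79.9 and 77.2 CPM in the mock libraries and 63.9, 62.2 and 66.9 CPM in the knockdown libraries, without overlap (difference -0.23), and GADD45G differed by 0.59. Of 37 apoptosis genes 18 were above 0 and 19 below. TNFRSF1A, the receptor for TNF, had 25.3, 25.7 and 22.7 CPM in the mock libraries and 18.9, 19.1 and 17.996 CPM in the knockdown libraries, without overlap (difference -0.40, SE 0.15), and BIRC5, an inhibitor of apoptosis, differed by 0.23.

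Stress, clock and patterning genes gave small numbers. None of 26 genes of the unfolded protein response, 30 heat shock genes or 19 clock genes had an unadjusted p under 0.05. Of the heat shock genes 25 were above 0 and 5 below, with a median of 0.10 that was 0.03 without mock replicate 2. AHSA1, a co-chaperone of HSP90, had 190.4, 155 and 195 CPM in the mock libraries and 203, 202 and 221 CPM in the knockdown libraries (difference 0.21), and DNAJA4 and SERPINH1 differed by 0.41 and -0.30. EDEM1, SESN2 and ERN1 differed by -0.16, 0.35 and -0.20. The clock genes NPAS2, CIART and CLOCK differed by -0.24, 0.41 and -0.15. Of 17 HOX genes, which record position along the body axis, 14 were above 0. With any 1 of the 6 h libraries left out 10 to 12 were, and with the span trend removed 10. HOXA3 had 4.41, 2.71 and 3.94 CPM in the mock libraries and 5.88, 6.45 and 5.002 CPM in the knockdown libraries, without overlap (difference 0.66). HOXB2 and HOXA9 differed by 0.22 and 0.22. Of 28 Wnt, Notch and hedgehog genes 13 were above 0 and 15 below. FZD7, a Wnt receptor, had 10.7, 9.08 and 10.5 CPM in the mock libraries and 17.4, 15.2 and 11.2 CPM in the knockdown libraries (difference 0.53), and GLI3, a hedgehog effector, had 22.9, 28.2 and 19.6 CPM in the mock libraries and 17.6, 15.6 and 18.2 CPM in the knockdown libraries (difference -0.46), both without overlap.

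Markers of other cell types were few. Of 17 leukocyte markers 6 were among the genes kept, and CD4, CD8A and CD79B were at 0. The level summed over all 17 was 39.5 to 49.8 CPM in mock and 39.4 to 45.4 CPM in knockdown. Of 12 endothelial markers 3 were kept, chiefly ERG with 248, 300.2 and 209.7 CPM in the mock libraries and 231, 237 and 200.1 CPM in the knockdown libraries, while ESAM and SOX17 were at 0. Of 12 epithelial markers GRHL2 alone was kept, with 8.91, 12.4 and 9.97 CPM in the mock libraries and 12.3, 12.4 and 12.8 CPM in the knockdown libraries, and EPCAM, KRT8, KRT18, KRT5 and CLDN4 were at 0. No skeletal muscle marker was kept. Of 14 neural markers 4 were kept, led by TUBB3 with 317, 217 and 230.2 CPM in the mock libraries and 340.3, 284 and 252 CPM in the knockdown libraries, and SOX2, NEFM, STMN2, OLIG2 and SNAP25 were at 0. Of 12 chondrocyte markers COL9A2 and COL9A3 were kept, near 0 in difference at 0.02 and 0.09, and MATN1, MATN3, HAPLN1 and EPYC were at 0.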

How the data were processed

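The authors deposited raw counts of reads in each gene, with a file for each library. The submitters' processing notes name the build GRCg7b and the tools STAR 2.7.11b, HTSeq 2.0.5, Trim Galore 0.6.10, edgeR 3.40.2 and FastQC 0.12.1. The labels give directional poly(A) libraries, and the sources used here do not give HTSeq's strand setting, so overlapping and antisense genes are uncertain. The counter's 5 summary lines stayed out of library sizes; 14.64 to 17.86% of each 6 h library fell outside genes.

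Genes were kept by filterByExpr and scaled by TMM, and 8 group means were fitted to all 24 libraries in edgeR 4.0.16 (R 4.3.3), with 16 residual degrees of freedom (common biological variation 14%). The tests were 2-sided and adjusted by Benjamini-Hochberg over 13000 genes, with calls at an adjusted p under 0.05. CPM were computed here after TMM, and errors of means are SD over 3 libraries. Floors cover counting error only, while the intervals also include the spread between libraries as the model estimated it. Comparisons with earlier times used the mean of the differences at 0 h, 30 min and 1 h. Gene symbols were matched to the supplied GRCg7b table, 25216 by symbol and 13 by locus tag, with 237 unmatched. DESeq2 1.42.0, limma 3.58.1, other scalings and filters, and fits without single libraries were alternatives. The script was tested on simulated data.

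The members and lists were chosen with earlier results of these data known. Named genes were IRF9, the 10 genes of smallest p in each direction that have a symbol (none was called), and the 3 of smallest p in each list (1 of these is not reported here), and all other genes named were chosen with their values in view. No value columns were left out. All pairs of 6 h libraries of a group differed beyond sampling noise, at 4.54 to 47.5 in chi-square per degree of freedom.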

Additional observations from a re-analysis of the deposited data

How the results depend on the processing

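At 6 h the count of called genes was 0 under RLE size factors, no filter, a filter at 1 CPM, limma voom, the 6 libraries alone, the 4 mock libraries numbered 2 left out, the 30 min libraries left out and the span trend removed. The exceptions were DESeq2 with 4 and leaving out 1 library, with 0 to 2. The cause was not tested. At 30 min the main fit called 1 of 13000 genes, IRF9, with an edgeR adjusted p of 0.0316. The count there was 195 with no filter, 95 by DESeq2, 0 by limma voom and 0 in the 6 libraries alone. It was 6 without the 4 mock libraries numbered 2 and 0 to 741 with 1 library left out. The 741 came without mock replicate 3 of 30 min. For 6 h minus earlier times the count was 2 by DESeq2, 1 by limma voom with a random replicate block and 0 to 1 with 1 library left out. With the replicate number as a block, 0 genes were called at 6 h, 1224 at an unadjusted p under 0.05. Deviations of same-numbered libraries correlated at 0.104, 0.016 and 0.128, so the numbers were not taken as pairs, although each mock library correlated best with its own number.

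Of the named genes, 4 markers of other cell types changed sign. COL9A2 was -0.22 without the 4 mock libraries numbered 2 and -0.22 in the 6 h libraries without that of mock, and -0.22 to 0.38 with 1 library left out. COL9A3 was -0.078 and -0.075 in those 2 fits, -0.018 by limma voom, -0.0089 with its random block, -0.029 by limma voom on 6 libraries, -0.025 with the block on 6 libraries, and -0.53 to 0.40 with 1 left out. GFAP was -0.021 and -0.017 (-0.0195 to 1.15 with 1 left out), and MARCO 0.31 and 0.31 (-0.85 to 0.31). The alternatives on the 30 min libraries, the 6 libraries with a block or without mock replicate 2 or by other tools, the span trend and the scalings of lists were chosen after seeing the data. Depth limits genes under 5 CPM most, and 3 libraries per group limit the test.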
